A study of Arabidopsis thaliana with 4 samples.

Results

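Cytosolic ribosomes are built from a large and a small subunit, each made of ribosomal RNA and a set of small basic proteins, most of them present once in a ribosome. The small subunit reads the messenger RNA, and the large subunit joins amino acids and carries the tunnel through which the new protein leaves. In Arabidopsis thaliana most of these proteins are encoded by 2 or more paralogous genes, and their transcripts are abundant in dividing and growing tissue.

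The 57 cytosolic ribosomal protein genes described here, of 27654 genes in the deposited table, are listed by identifier. The rule uses no measured value, but the genes were chosen with earlier results of these data known. They encode 26 proteins, 13 of the large subunit (27 genes) and 13 of the small subunit (30 genes), and 22 of the proteins have 2 or more of their genes among them. The reference annotation describes all 57 as ribosomal protein genes. All 57 passed the filter on low values, which asks for a mean of 10 or more.

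The study sequenced polyadenylated RNA of whole Arabidopsis seedlings, ecotype Columbia. Control seedlings were SKP2B::GUS, a line with a GUS reporter behind the SKP2B promoter. The mutant was fip1-2, in which the name refers to FIP1, part of the machinery for cleavage and polyadenylation of messenger RNA. Both were grown in Murashige and Skoog medium for a time labelled 8 with no unit, and each group had 2 libraries. The labels give neither the kind of lesion in fip1-2 nor whether it carries the reporter, and they do not say whether replicates were separate cultures, so the p-values measure the spread between libraries, which may be technical. Levels are normalised read counts. A log2 fold change is a difference of log2(value + 2), so it is too small for low genes.

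The libraries held 20874114 to 21104606 reads assigned to genes. FIP1 (AT5G58040) itself stood at 1796 and 1912 in control and at 5217 and 5145 in fip1-2, a level that does not check the label because the kind of allele is not given; libraries are named by their labels throughout. Seedling markers were present. The 3 leaf markers were RBCS1A, LHCB1.3 and RBCS3B, 1 of them called lower. They summed to 655580 and 672850 in control and to 605640 and 630510 in fip1-2. The fall in the sum came from LHCB1.3, at 431000 and 456500 in control and at 370600 and 380400 in fip1-2. RBCS1A went up, from 173900 and 169500 in control to 183500 and 194400 in fip1-2. RBCS3B also went up, from 50680 and 46850 to 51540 and 55710. The flower markers AP3 and PI summed to 19.21 and 19.41 in control and to 4.097 and 6.227 in fip1-2. Neither AP3 nor PI was tested, because the mean of each lay under the filter on low values. The 3 root markers (IRT1, EXPA7, CASP1), all called higher, summed to 1191 and 1240 in control and to 2405 and 2828 in fip1-2. They rose by unequal amounts. IRT1 rose most, from 106.6 and 178.6 in control to 720.1 and 1260 in fip1-2. EXPA7 went from 224.8 and 203.8 to 535.7 and 490.9, and CASP1 from 859.9 and 858.1 to 1149 and 1077. The share of root tissue in the seedlings was not measured, and its part in the results below was not tested. In whole seedlings, fewer cells of a type and less RNA per cell cannot be told apart.

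In fip1-2, transcripts of cytosolic ribosomal proteins were lower more often than higher. Of the 57 genes, 29 were called lower, 3 were called higher and 25 did not pass the test (limma, Benjamini-Hochberg adjusted p under 0.05 over 19931 genes). Over all genes tested, 26.8% were called lower and 27% higher (53.8% in either direction), against 50.9% of the ribosomal protein genes called lower. The changes were small, with a median log2 fold change of -0.16 and a range from -0.82 to 0.23, where the median of all genes tested was -0.0043. The genes took 0.818% and 0.774% of all reads in control and 0.682% and 0.701% in fip1-2, so that the groups did not overlap. The counts moved with single libraries. Without control replicate 1, 21 genes were called lower and 2 higher, and without control replicate 2, 29 were lower and 3 higher. Without fip1-2 replicate 1, 19 were lower and 3 higher, and without fip1-2 replicate 2, 23 were lower and 0 higher (limma). Of the 32 called genes, 15 kept their call without each of the 4 libraries in turn, and all 15 were lower, 11 of them in the small subunit.

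**Figure D1:**
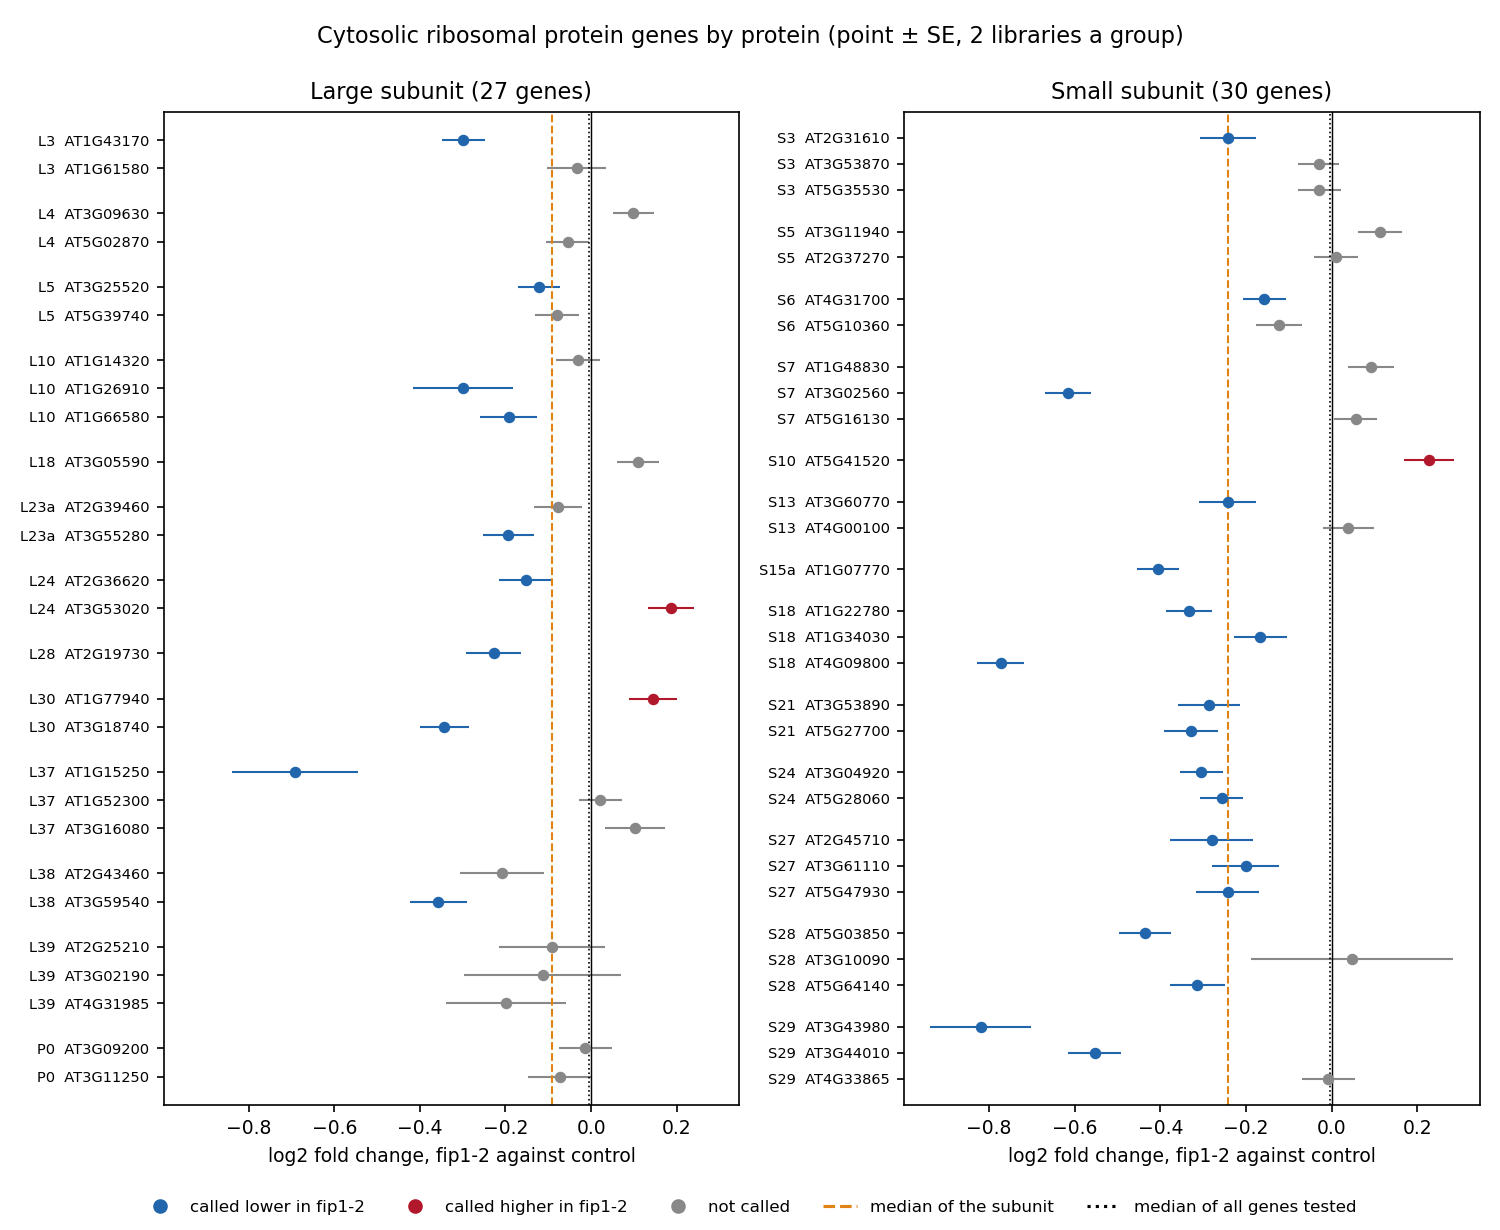
Log2 fold change of each gene in fip1-2 against control (horizontal axis, point ± SE, 2 libraries a group), with genes grouped by protein and split by subunit; the dashed line is the median of the subunit and the dotted line that of all genes tested. Most small subunit genes lie left of 0, with a median of -0.24, while the large subunit genes lie closer to 0, with a median of -0.09.

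The 57 genes have short transcripts, and the changes of all genes moved with transcript length. Their longest annotated transcripts ran from 402 to 1738 bases with a median of 969, where the median of all genes tested was 1748 bases. Over all genes tested, short transcripts were lower in fip1-2 more often than long ones. The genes tested were split by length into 10 classes of near equal size. In the shortest class (up to 936 bases), which holds 26 of the 57 genes, 41.3% of all genes were called lower with a median log2 fold change of -0.25. In the next class (937 to 1161 bases), with 15 of the 57, 39.4% were called lower, and in the longest class 7.42%. When the trend with transcript length and GC content over all genes was removed, 13 of the 57 genes were called lower and 10 higher, against 28.6% and 22.2% of all genes. The median log2 fold change of the 57 was then -0.03, and that of all genes tested -0.04.

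**Figure D2:**
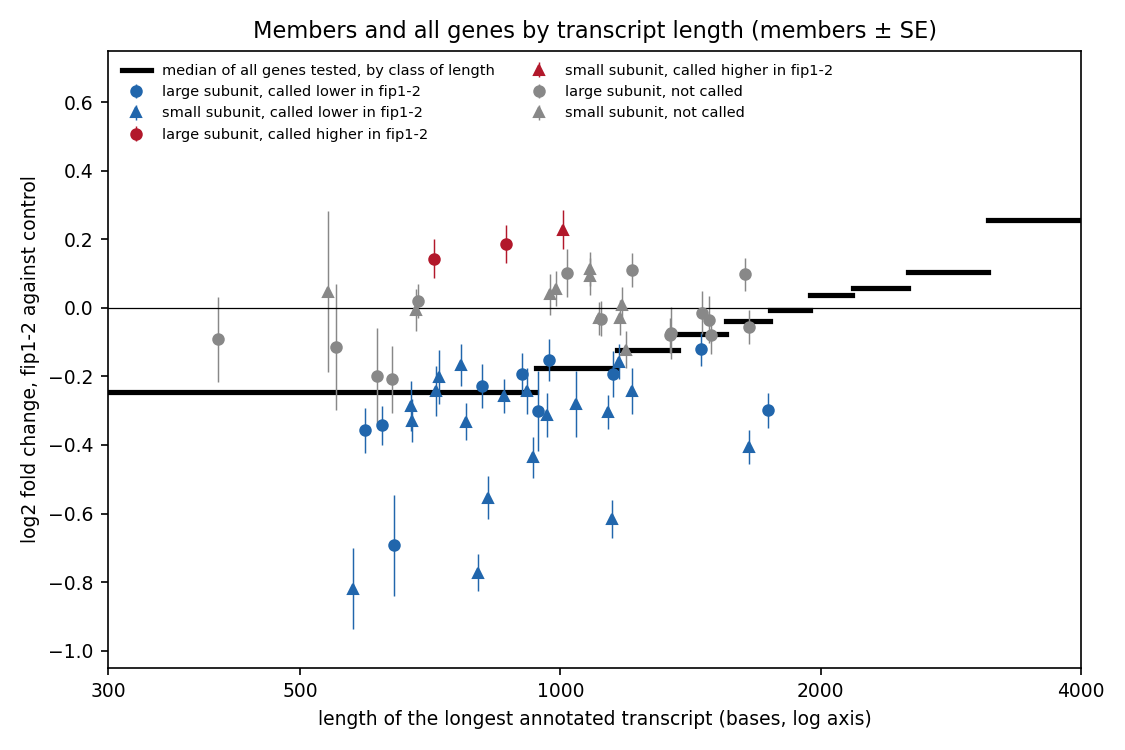
Log2 fold change (vertical axis, points ± SE) against the length of the longest annotated transcript in bases (log axis) for the 57 genes, with circles for the large and triangles for the small subunit; black bars are the medians of all genes tested in each of 10 classes of length. Many of the genes called lower lie near the black bars of the short transcripts, from -0.25 in the shortest class to -0.12 in the class of 1162 to 1367 bases, while S29 (AT3G43980), RPS18C, S7 (AT3G02560) and L37 (AT1G15250) lie far below them.

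Of the 29 genes called lower, 11 were also called lower with the trend removed and 18 were not called. All 3 genes called higher stayed higher, and 7 others became higher. The 11 were 9 small subunit genes and 2 large subunit genes, L3 (AT1G43170) and L37 (AT1G15250). Under each of 15 alternative settings, 10 of the 32 called genes were called, 8 of them in the small subunit.

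**Figure D3:**
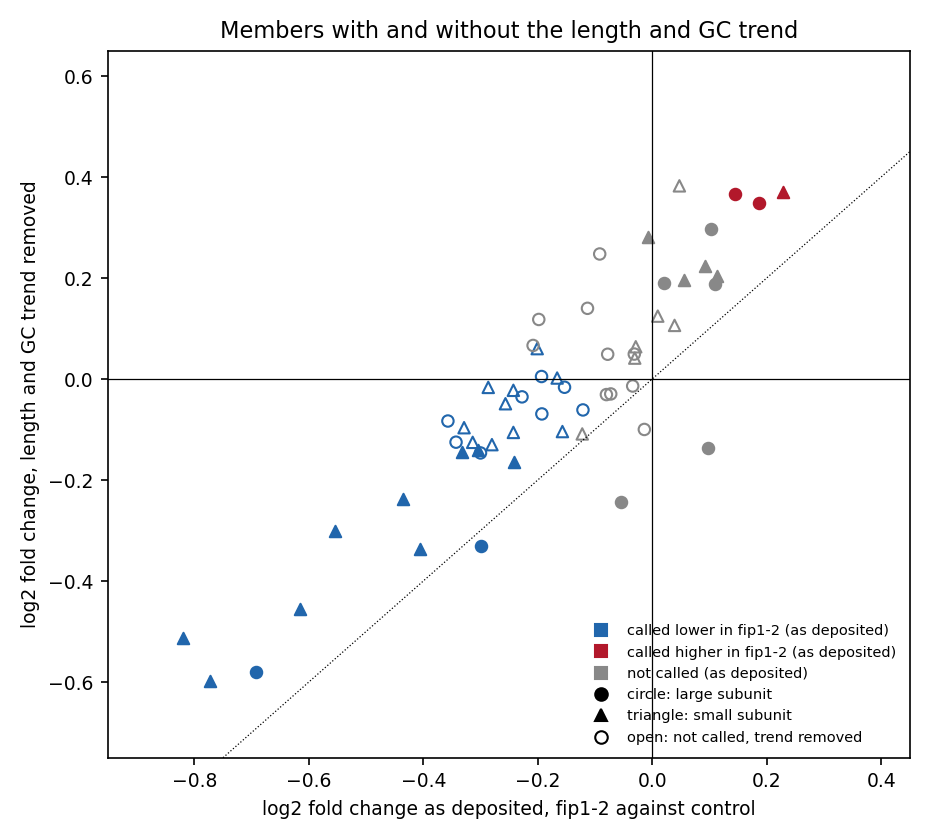
Log2 fold change of the 57 genes as deposited (horizontal axis) and with the length and GC trend over all genes removed (vertical axis); colours give the call as deposited, and filled symbols are called with the trend removed. Points above the dotted line of equal values moved upward, and the genes with the largest falls stayed below 0, RPS18C at -0.60 and S29 (AT3G43980) at -0.51.

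The small subunit held most of the falls. Of its 30 genes, 19 were called lower and 1 higher, with a median log2 fold change of -0.24, and 9 were lower and 5 higher with the trend removed. Of the 27 large subunit genes, 10 were called lower and 2 higher, with a median of -0.09, and 4 were lower and 5 higher with the trend removed. Of all genes tested, 26.8% were called lower and 27% higher. With the trend removed these shares were 28.6% and 22.2%, and the 9 of 30 small subunit genes called lower were near the 28.6%. The median transcript length was 969 bases in both subunits. The small subunit genes took 0.417% and 0.395% of reads in control and 0.336% and 0.349% in fip1-2. The large subunit genes took 0.400% and 0.379% of reads in control and 0.346% and 0.352% in fip1-2. Without control replicate 1 and without fip1-2 replicate 1 the small subunit median was -0.16 and -0.15, and 13 and 12 of its genes were called lower. Without fip1-2 replicate 2, 5 large subunit genes were called lower and 0 higher (limma). The difference between the subunits was not tested.

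**Figure D4:**
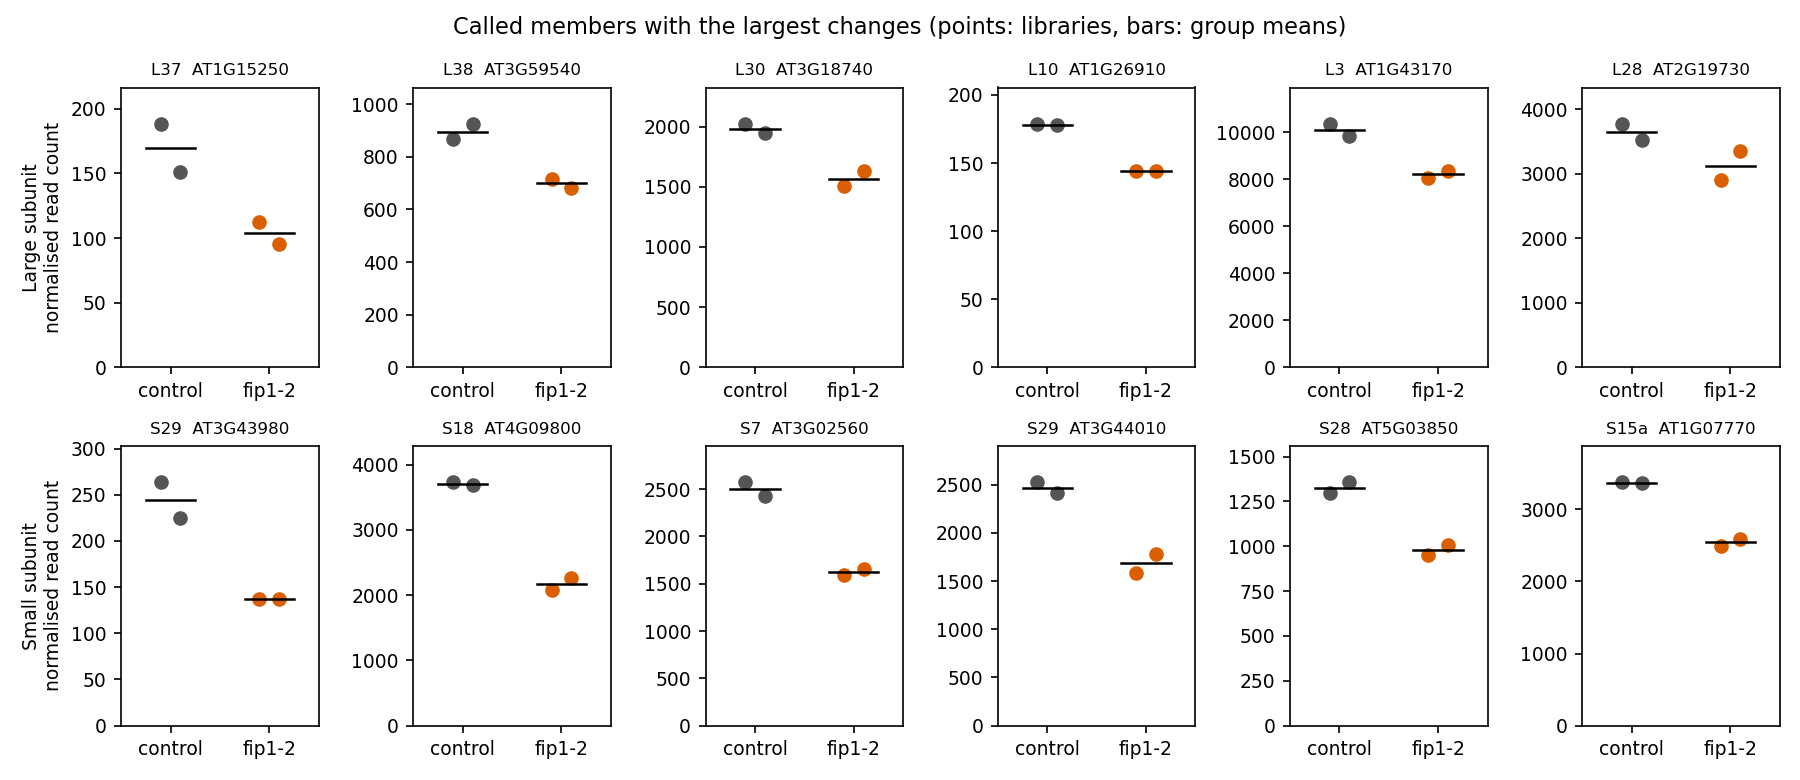
Normalised read count (vertical axes, from 0) of the 6 called genes of each subunit with the largest fold change, with 1 point per library and a bar at the group mean; every one is a fall. In all 12 panels both fip1-2 points lie below both control points.

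The protein S18 lies in the head of the small subunit and contacts the large one. RPS18C (AT4G09800), 1 of its 3 genes, stood at 3728 and 3688 in control and at 2076 and 2267 in fip1-2. The fall was 0.77 on the log2 scale (SE 0.054, limma adjusted p = 3.44e-08), and with the trend removed the log2 fold change was -0.60. The paralog PFL (AT1G22780), whose mutant has pointed first leaves, was lower at -0.33 (SE 0.054, limma adjusted p = 1.16e-04), and AT1G34030 at -0.17 (SE 0.061, limma adjusted p = 0.0324). The call of AT1G34030 was lost without control replicate 2 or either fip1-2 replicate (highest limma adjusted p = 0.178). With the trend removed it was at 0.0020 and not called, and PFL was still lower at -0.14. All 3 S18 genes were thus called lower, by unequal amounts. Their summed count went from 7028 and 7199 in control to 4879 and 5086 in fip1-2, a log2 ratio of -0.51, the lowest of the 26 proteins. Per kilobase of transcript, RPS18C gave 52.2% and 50.4% of the S18 level in control and 41.7% and 43.7% in fip1-2. The annotated RPS18C overlaps AT4G09810 on the opposite strand by 25 bases, and that gene was at -0.05 and not called.

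S29 is a small zinc-binding protein of the small subunit. AT3G43980 stood at 263 and 225 in control and at 137 in both fip1-2 libraries, a log2 fold change of -0.82 (SE 0.118, limma adjusted p = 4.17e-05), the largest fall among the 57 genes. AT3G44010 stood at 2522 and 2408 in control and at 1579 and 1785 in fip1-2, a log2 fold change of -0.55 (SE 0.062, limma adjusted p = 3.65e-06). The remaining paralog, AT4G33865, stood at 848 and 868 in control and at 841 and 867 in fip1-2, so that the groups overlapped, at a log2 fold change of -0.01 (SE 0.062, limma adjusted p = 0.930). With the trend removed, the values were -0.51, -0.30 and 0.28, the last of them called higher. The share of AT4G33865 in the S29 level per kilobase went from 26.2% and 27.8% in control to 36.5% and 34.7% in fip1-2. AT3G43980 and AT3G44010 share 94.2% of their coding sequence and a run of 62 bases, so reads between those 2 could be split by the counting.

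S7 is a small subunit protein that is needed early in subunit assembly in yeast. AT3G02560 stood at 2570 and 2425 in control and at 1597 and 1661 in fip1-2, a log2 fold change of -0.62 (SE 0.054, limma adjusted p = 3.33e-07). Its paralogs AT1G48830, at 0.09 (SE 0.054, limma adjusted p = 0.167), and AT5G16130, at 0.06 (SE 0.051, limma adjusted p = 0.372), did not pass the test, and both were called higher with the trend removed, at 0.22 and 0.20. The log2 ratio of AT1G48830 to AT3G02560 rose from -0.41 and -0.37 in control to 0.30 and 0.33 in fip1-2. Per kilobase, AT3G02560 gave 31.26% and 31.04% of the S7 level in control and 21.8% and 22.1% in fip1-2. The gene overlaps MEE31 (AT3G02570), on the opposite strand, by 40 bases, and MEE31 was also lower, at -0.94 (SE 0.058, limma adjusted p = 8.43e-09). Since the protocol marks no strand, reads in the overlap cannot be assigned to one of the pair.

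The other small subunit falls were spread over several proteins. S28 (AT5G03850) stood at 1296 and 1356 in control and at 950.6 and 1010 in fip1-2, a log2 fold change of -0.44 (SE 0.060, limma adjusted p = 2.76e-05), and its paralog RPS28 (AT5G64140) was lower at -0.31. The remaining S28 gene, AT3G10090, had the largest SE of the 57 (0.236), at 55.73 and 106.8 in control and 80.93 and 78.88 in fip1-2, and was not called. RPS15A (AT1G07770), the only S15a gene among the 57, stood at 3370 and 3358 in control and at 2493 and 2586 in fip1-2, a log2 fold change of -0.41 (SE 0.050, limma adjusted p = 8.92e-06). Both members of S21 and of S24, and all 3 of S27, were called lower, with log2 fold changes from -0.33 to -0.20. AT3G53890 of S21 lost its call without control replicate 1 (limma adjusted p = 0.0505), and the 3 S27 genes lost theirs without control replicate 1 or fip1-2 replicate 1, AT2G45710 also without fip1-2 replicate 2 (highest limma adjusted p from 0.190 to 0.497). With the trend removed, 1 of these 7 was called lower, AT3G04920 of S24, at -0.14.

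S6 is the ribosomal protein that S6 kinase phosphorylates downstream of the TOR kinase. RPS6 (AT4G31700) was lower at -0.16 (SE 0.050, limma adjusted p = 0.0165), and its paralog EMB3010 (AT5G10360) stood at -0.12 (SE 0.054, limma adjusted p = 0.0711). RPS6 was not called without control replicate 1 or fip1-2 replicate 1 (highest limma adjusted p = 0.126), and neither gene was called with the trend removed. S3, which lines the entry of the messenger RNA channel, had 1 gene lower, AT2G31610 at -0.24 (SE 0.066, limma adjusted p = 6.78e-03), beside 2 paralogs at -0.03 each; its call was lost without control replicate 1 or fip1-2 replicate 1 (highest limma adjusted p = 0.105). S13 had AT3G60770 lower at -0.24, not called without fip1-2 replicate 1 (limma adjusted p = 0.115), and RPS13A (AT4G00100) not called at 0.04.

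One small subunit gene was called higher. RPS10B (AT5G41520), of a protein close to the messenger RNA entry, stood at 4001 and 3660 in control and at 4310 and 4660 in fip1-2, a log2 fold change of 0.23 (SE 0.057, limma adjusted p = 3.86e-03). Both fip1-2 libraries lay above both control libraries, but without fip1-2 replicate 2 the adjusted p by limma was 0.0694. The 2 S5 genes did not pass the test. RPS5A (AT3G11940), which is active in dividing cells and is needed in the embryo, stood at 0.11 (SE 0.051, limma adjusted p = 0.0737) and was higher with the trend removed, at 0.20. RPS5B (AT2G37270) stood at 1977 and 1945 in control and at 1962 and 1988 in fip1-2, overlapping groups with a log2 fold change of 0.01.

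In the large subunit, 2 proteins had paralogs that moved in opposite directions. L24 is a protein of the surface that faces the small subunit, and its gene STV1 is known for its part in reinitiation of translation after short upstream reading frames. RPL24A (AT2G36620) stood at 2418 and 2134 in control and at 2012 and 2074 in fip1-2, a log2 fold change of -0.15 (SE 0.061, limma adjusted p = 0.0473). STV1 (AT3G53020) stood at 1885 and 1786 in control and at 2046 and 2132 in fip1-2, a log2 fold change of 0.19 (SE 0.054, limma adjusted p = 9.60e-03). Per kilobase, STV1 gave 46.6% and 48.4% of the L24 level in control and 53.2% and 53.5% in fip1-2, while the summed count of the pair overlapped between groups. Both calls were lost on leaving out single libraries. That of RPL24A was lost without control replicate 1 or either fip1-2 replicate (highest limma adjusted p = 0.452), and that of STV1 without control replicate 2 or fip1-2 replicate 2 (highest 0.0864). With the trend removed RPL24A was not called, at -0.02, and STV1 was higher at 0.35.

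L30 is a small protein close to the contact with the small subunit. AT1G77940 stood at 2355 and 2477 in control and at 2557 and 2786 in fip1-2, a log2 fold change of 0.14 (SE 0.056, limma adjusted p = 0.0431), a call that was lost without control replicate 1 or fip1-2 replicate 2 (highest limma adjusted p = 0.340). AT3G18740 stood at 2023 and 1947 in control and at 1504 and 1628 in fip1-2, a log2 fold change of -0.34 (SE 0.057, limma adjusted p = 1.56e-04), and was not called with the trend removed, at -0.13. Another L30 gene, outside the 57, AT1G36240, had no read in either control library, but 207 and 218 in fip1-2. With it counted, AT1G77940 gave 54.03% and 54.25% of the L30 level per kilobase in fip1-2, AT3G18740 36.5% in each, and AT1G36240 9.44% and 9.28%. AT1G36240 shares 89.1% of its coding sequence with AT3G18740 and at most 34 bases in a row.

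**Figure D5:**
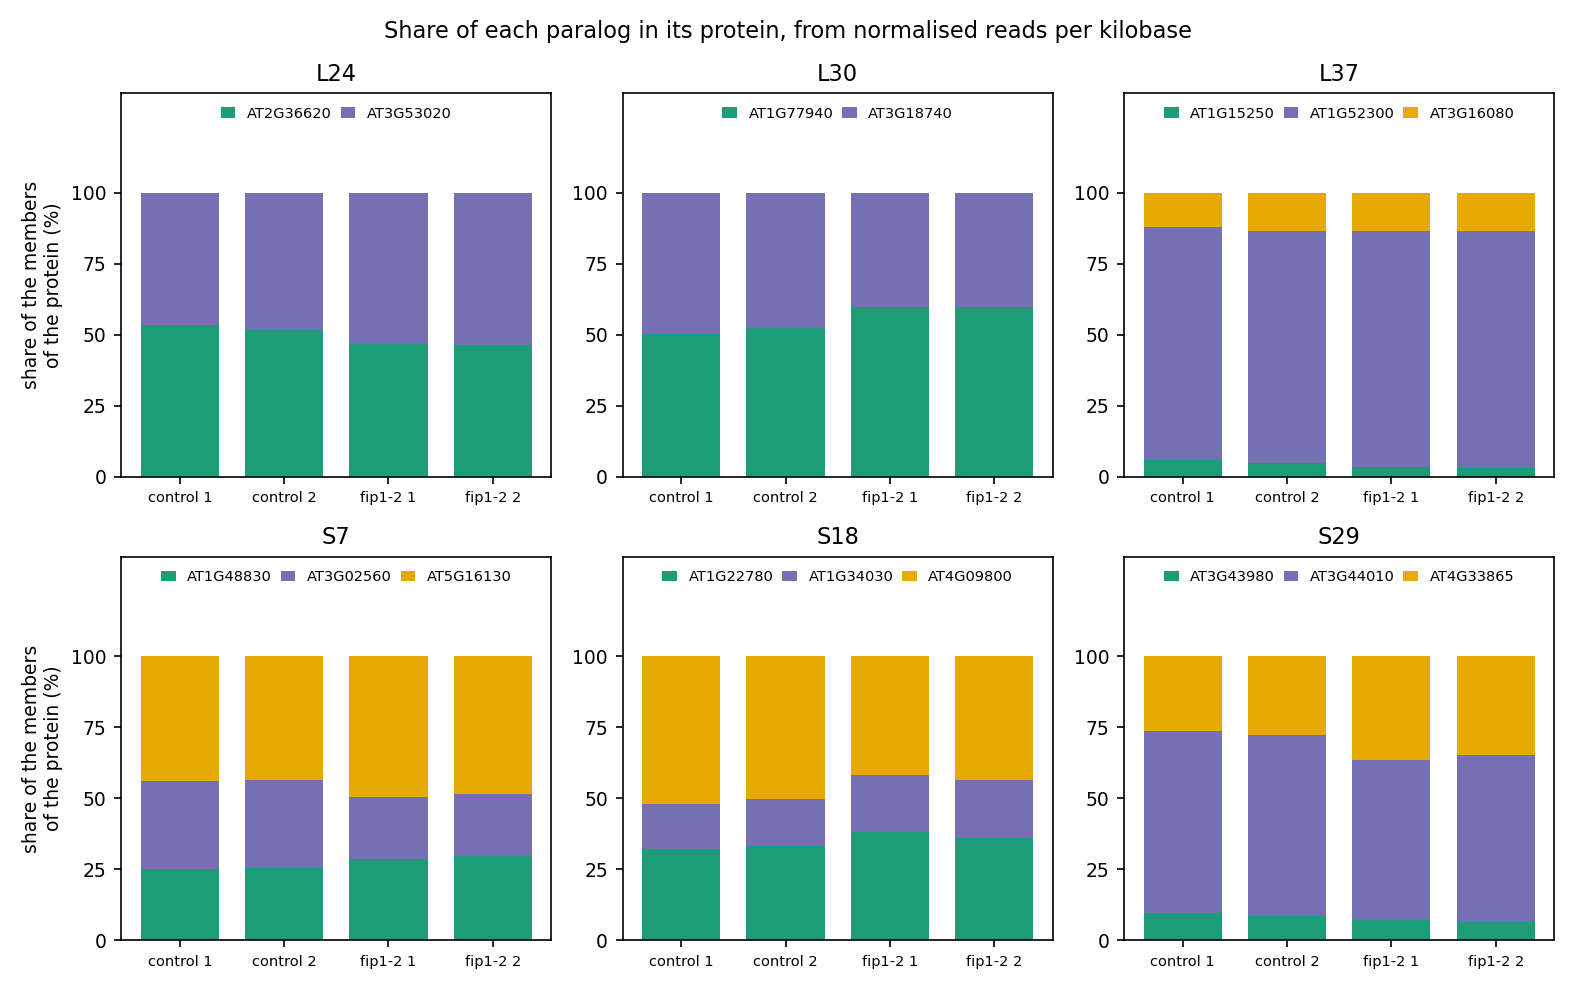
Share of each paralog in the level of its protein (vertical axis, percent of the normalised reads per kilobase of the genes shown), as stacked bars for the 4 libraries, for 6 proteins. The bar heights of the paralogs differ between the control and fip1-2 libraries, for example S7 (AT3G02560) from a mean of 31.15% in control to 21.95% in fip1-2.

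The promoters of these opposite pairs, and that of S7 (AT3G02560), are shown because paralogs of one protein differ there in motifs known from plant ribosomal protein genes. Each sequence is the 250 bases before the start of the longest transcript annotated by RefSeq on TAIR10.1, read 5′ to 3′ on the strand of the gene. Capitals mark site II motifs (TGGGCC or TGGGCT, also in reverse complement) and the telo box (AAACCCTAA, either strand), and capitals run on where 2 motifs overlap.
RPL24A (AT2G36620, chr2:15352014-15352263, minus strand): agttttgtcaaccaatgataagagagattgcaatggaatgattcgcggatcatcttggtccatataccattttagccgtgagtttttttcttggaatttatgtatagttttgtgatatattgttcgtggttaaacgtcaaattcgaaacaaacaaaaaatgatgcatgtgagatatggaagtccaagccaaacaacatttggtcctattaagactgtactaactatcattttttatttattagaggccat
STV1 (AT3G53020, chr3:19662026-19662275, minus strand): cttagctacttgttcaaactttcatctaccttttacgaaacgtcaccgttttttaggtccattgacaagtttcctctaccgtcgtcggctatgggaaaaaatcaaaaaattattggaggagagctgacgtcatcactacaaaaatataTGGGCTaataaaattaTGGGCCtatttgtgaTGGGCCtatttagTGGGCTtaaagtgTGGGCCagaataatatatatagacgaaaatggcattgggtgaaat
L30 (AT1G77940, chr1:29305412-29305661, minus strand): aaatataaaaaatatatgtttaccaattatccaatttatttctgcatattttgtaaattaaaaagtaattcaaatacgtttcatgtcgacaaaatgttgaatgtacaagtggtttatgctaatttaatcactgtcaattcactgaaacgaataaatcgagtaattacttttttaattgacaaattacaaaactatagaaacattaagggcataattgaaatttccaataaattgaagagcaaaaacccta
L30 (AT3G18740, chr3:6453053-6453302, plus strand): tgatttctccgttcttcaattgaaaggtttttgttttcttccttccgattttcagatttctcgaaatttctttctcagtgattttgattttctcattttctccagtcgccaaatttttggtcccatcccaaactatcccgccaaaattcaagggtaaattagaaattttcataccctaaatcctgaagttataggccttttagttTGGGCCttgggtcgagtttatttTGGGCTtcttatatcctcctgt
S7 (AT3G02560, chr3:541549-541798, plus strand): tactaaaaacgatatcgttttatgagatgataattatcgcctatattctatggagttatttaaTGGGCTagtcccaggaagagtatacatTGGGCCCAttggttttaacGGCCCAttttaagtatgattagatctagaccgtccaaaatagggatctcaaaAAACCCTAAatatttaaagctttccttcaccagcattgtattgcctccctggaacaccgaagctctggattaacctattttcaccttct
STV1 holds 5 site II matches in this window and RPL24A none. In L30 the direction was the other way, with 2 matches in AT3G18740, which was lower, and none in AT1G77940, which was higher. S7 (AT3G02560), which was lower, holds 4 site II matches and 1 telo box. Its paralog AT5G16130, not called, holds 2 site II matches and 1 telo box, and AT1G48830, also not called, holds neither motif.

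Over the 57 genes, 38 (66.7%) had a site II match in the 250 bases, against 22.2% of all genes tested, and 5 (8.77%) had a telo box, against 2.12%. Of the other motifs searched on both strands, TATAAA was found in 49.1% of the 57 against 46.2%, and ACGTG in 14.04% against 24.2%. Site II matches were found among genes of every call. They were present in 18 of the 29 genes called lower, in 2 of the 3 called higher and in 18 of the 25 not called. The median log2 fold change was -0.14 in the 38 genes with a match and -0.19 in the 19 without. A match is a description of the letters in this window, and no binding was measured.

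The largest fall in the large subunit was in L37, a zinc-binding protein. AT1G15250 stood at 188 and 151 in control and at 112.7 and 95.48 in fip1-2, a log2 fold change of -0.69 (SE 0.147, limma adjusted p = 1.14e-03). It overlaps AT1G15240 on the opposite strand by 30 bases, and that gene was higher, at 0.34. Neither paralog passed the test, and both were called higher with the trend removed, AT1G52300 at 0.19 and AT3G16080 at 0.30. AT1G52300 stood at 2813 and 2713 in control and at 2809 and 2798 in fip1-2, and AT3G16080 had a log2 fold change of 0.10. AT1G52300 gave 82.3% and 81.9% of the L37 level per kilobase in control and 82.9% and 83.6% in fip1-2, and the summed L37 count overlapped between groups.

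L3 lies close to the centre that forms peptide bonds. Its gene RP1 (AT1G43170) stood at 10354 and 9839 in control and at 8057 and 8355 in fip1-2, a log2 fold change of -0.30 (SE 0.051, limma adjusted p = 1.78e-04), and its value with the trend removed, -0.33, was as large. RPL3B (AT1G61580) was not called, at -0.03. L38 (AT3G59540) stood at 866.6 and 925.1 in control and at 717.1 and 680.8 in fip1-2, a log2 fold change of -0.36 (SE 0.066, limma adjusted p = 3.79e-04), and was not called with the trend removed. Its paralog AT2G43460 stood at -0.21 (SE 0.098, limma adjusted p = 0.0876). RPL10B (AT1G26910), of a protein that joins late in assembly of the large subunit, stood at 178.7 and 177.6 in control and at 144.4 and 144.3 in fip1-2, a log2 fold change of -0.30 (SE 0.117, limma adjusted p = 0.0430). The groups lay apart, but the call was lost on leaving out any 1 of the 4 libraries (highest limma adjusted p = 0.131). The L10 gene SAC52 (AT1G14320), which gave 75.7% and 74.3% of the L10 level per kilobase in control, was not called, at -0.03. SAG24 (AT1G66580), also of L10, was lower at -0.19, a call that was lost without fip1-2 replicate 2 (limma adjusted p = 0.340). L28 (AT2G19730) stood at 3770 and 3528 in control and at 2900 and 3346 in fip1-2, a log2 fold change of -0.23 (SE 0.064, limma adjusted p = 8.07e-03), not called without fip1-2 replicate 1 (limma adjusted p = 0.155).

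The other large subunit proteins had smaller changes. P0, the base of the stalk that recruits elongation factors, was represented by AT3G09200, at 9861 and 8806 in control and 8813 and 9669 in fip1-2, with a log2 fold change of -0.01 (SE 0.062, limma adjusted p = 0.868), and by AT3G11250, at -0.07 and not called. L39, a very small protein of the exit tunnel, had 3 genes between -0.20 and -0.09, none of them called. L4, which reaches into the exit tunnel, had AT3G09630 at 0.10 and AT5G02870 at -0.05, neither called, and both were lower with the trend removed, at -0.14 and -0.24. L18 (AT3G05590) stood at 0.11 (SE 0.049, limma adjusted p = 0.0745) and was higher with the trend removed, at 0.19. L5, which binds the 5S ribosomal RNA, had ATL5 (AT3G25520) lower at -0.12 (SE 0.049, limma adjusted p = 0.0493) and RPL5B at -0.08, not called, and the call of ATL5 was lost without control replicate 1 or either fip1-2 replicate (highest limma adjusted p = 0.222). L23a, at the exit of the tunnel, had RPL23AB (AT3G55280) lower at -0.19 and RPL23AA at -0.08, not called, and RPL23AB was not called without fip1-2 replicate 2 (limma adjusted p = 0.0808).

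The counts of each protein were summed over its genes among the 57. The fip1-2 libraries were both below the control libraries for 16 of the 26 proteins, both above for 4 and overlapping for 6. The 16 were 10 of the 13 small subunit proteins and 6 of the 13 large subunit proteins. The 4 were L4, L18, S5 and S10. L18 and S10 have further paralogs outside the 57. With all listed paralogs counted, their sums overlapped between groups, at log2 ratios of 0.0070 for L18 and -0.019 for S10. In single genes, both fip1-2 libraries were below both control libraries in 35 of the 57 (39% of all genes tested) and above in 9 (38.2% of all genes tested). With 2 libraries a group, an exact permutation test of 1 value cannot go below p = 0.333, so the sums are given without a test. No share was computed for sums of other genes, and the sums were not recomputed with the length and GC trend removed.

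Paralogs of one protein were compared with each other without a test. Of the 22 proteins with 2 or more of their genes among the 57, 4 had every gene called lower, 2 had genes called in both directions, 12 had genes lower beside genes not called, and 4 had none called. Of all single genes tested, 26.8% were called lower and 27% higher. The 4 with every gene lower were S18, S21, S24 and S27. With the trend removed, none of these had every gene called lower. The log2 ratio of 2 paralogs in a library does not depend on the scaling of the library, and in 22 of 40 pairs its values in the fip1-2 libraries lay outside those of control. As both fip1-2 libraries also lay below control in 39% and above it in 38.2% of all single genes tested, and no share over all gene pairs was computed, nothing is read from that count. The largest shifts were between S29 AT4G33865 and AT3G43980, by 0.81, and between L37 AT3G16080 and AT1G15250, by 0.80. In S6, S21 and S24 the ratio shifted by at most 0.05 and the groups overlapped. The median range between the paralogs of one protein was 0.18 (log2), and it exceeded 0.3 in 7 proteins.

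Of the 57 genes, 12 overlap another annotated gene, 9 of them on the opposite strand. Among the 45 without an overlap, 23 were called lower and 3 higher, where 26.8% and 27% of all genes tested were. The 45 were not recounted with the trend removed. No share of overlapping genes over all genes was computed, and the part of overlaps in the falls was not tested.

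The other 166 cytosolic ribosomal protein genes listed in the same way were counted beside them. The shares over all genes tested were 26.8% lower and 27% higher, and 28.6% and 22.2% with the trend removed. Of 149 tested, 65 were called lower and 11 higher, with a median log2 fold change of -0.14. With the trend removed 40 were lower and 35 higher, near the shares of all genes. The 4 with the smallest p-values were AT1G36240 (L30), higher as above, and AT3G02080 (S19), AT2G09990 (S16) and AT3G49910 (L26), lower at -0.74, -0.91 and -0.53. Nuclear genes for plastid ribosomal proteins, which serve the chloroplast's own ribosomes, were 19 lower and 4 higher of 30 tested, with a median of -0.20, and with the trend removed 11 lower and 5 higher, with a median of -0.084.

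Genes that build or drive the ribosome had other counts. The shares over all genes tested were 27% higher and 26.8% lower, and 22.2% and 28.6% with the trend removed. Of 25 ribosome assembly factor genes, 10 were called higher and 5 lower, with a median log2 fold change of 0.17, but 9 and 7 with the trend removed; their median transcript length was 2060 bases. NUC-L2 (AT3G18610), a nucleolin gene for the processing of ribosomal RNA precursors, stood at 27.86 and 28.15 in control and at 114.7 and 117.3 in fip1-2, a log2 fold change of 1.98 (SE 0.186, limma adjusted p = 6.42e-07). FIB2 (AT4G25630), a fibrillarin gene for methylation of ribosomal RNA, was higher at 0.60, and NOP56 (AT1G56110), of the same particle, at 0.42. Of 7 genes of the TOR pathway, which stimulates ribosome production, 5 were higher and 1 lower. Among them TOR (AT1G50030) was at 0.80 (SE 0.057) and 0.14 with the trend removed, and RAPTOR2 (AT5G01770) at 1.91 (SE 0.092) and 1.37 with the trend removed. Of 11 elongation factor genes, 2 were higher and 3 lower, near the 27% and 26.8% of all genes tested, and with the trend removed 1 was higher and 6 lower.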

How the data were processed

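Polyadenylated RNA of whole seedlings was measured in 4 libraries, 2 control and 2 fip1-2, grouped by the titles in the labels. The labels disagree on the assay: the design text names poly(A) tag sequencing, while the extract protocol describes oligo(dT) selection and fragmentation. The submitters' processing notes name HISAT2, HTSeq, edgeR, FastQC and CASAVA 1.4 without saying what each did, and the sources used here give no build or annotation. The deposited signal per gene is a read count that the authors divided by 1 size factor per library, per the values: all (100%, within 1e-06) came out whole on division, so whole reads were recovered.

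Values were tested as deposited on log2(value + 2), for the 19931 genes with a mean of at least 10, with limma 3.58.1 (eBayes with trend, two-sided, R 4.3.3), genotype as the only term and Benjamini-Hochberg adjustment over all genes at 0.05. The deposited values are not raw counts, so edgeR 4.0.16 and DESeq2 1.42.0 were run on the recovered reads as alternatives. Limma called 10726 genes, edgeR 10731 and DESeq2 fewer, 7232. The length and GC trend is a smooth fit over all genes (mgcv 1.9.3), subtracted from each library. The median SE of a log2 fold change was 0.094; depth and the spread between replicates limit precision, and replicates were further apart than sampling noise (2.97 for control and 2.72 for fip1-2 as chi-square per gene). On data simulated for this comparison (19581 genes), 32.7% of 1.25-fold, 75.5% of 1.5-fold, 83.7% of 2-fold and 100% of 4-fold changes were called, and 5 of 19385 unchanged genes. Only 49 genes of each fold were changed there, where 53.8% of genes were called in the data. The adjustment is stricter when few genes change, so these rates are not the rates of the real comparison.

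The genes and lists were chosen with earlier results of these data known. Named with values in each library are the 6 called genes of each subunit with the largest absolute log2 fold change, all genes of a protein with calls in both directions, and the 2 genes of each subunit nearest 0; from other lists, up to 4 with the smallest p. The others that are named, and the genes they overlap, were chosen after their values were seen. Shares use reads per kilobase of the longest transcript annotated on TAIR10.1, from which the sequences also come. Of 27654 identifiers, 210 are not in that annotation.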

Additional observations from a re-analysis of the deposited data

How the results depend on the processing

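The 57 genes were recounted under 15 alternatives. TMM rescaling, pseudocounts of 0.5 and 8, a filter of 50 and a robust variance left all 32 calls in place. Without a filter 20 genes were called (6 large, 18 lower, 5 large lower, 1 large higher), and 3 elongation factor genes. DESeq2 called 21 (5 large, 5 large lower, 1 higher, 0 large higher), 3443 genes lower over all, 9 assembly factor and 3 elongation factor genes. Quantile normalization gave 1 higher gene (1 large, 0 small) and a large subunit median of -0.16. It also called AT5G02870, AT5G39740, AT2G39460, AT3G53870, AT5G35530 and AT5G10360 lower, which the main fit did not call, and lost the call of AT1G26910. Removing the length and GC trend gave 10 higher (5 large, 5 small) and 13 lower (4 large, 9 small), with medians of -0.016 and -0.073. Leaving out 1 library gave 19 to 29 genes lower and 0 to 3 higher; large subunit genes called ran from 5 to 11 (lower 5 to 10, higher 0 to 2), small from 13 to 21 (lower 12 to 19, higher 0 to 2), the small subunit median from -0.29 to -0.15 and elongation factor genes from 3 to 4. The cause was not tested.

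Some log2 fold changes changed sign, among them those of 3 genes called lower, AT3G55280 (-0.19), AT1G34030 (-0.17) and AT3G61110 (-0.20), with the trend removed. With the trend removed they were AT3G09630 -0.14, AT1G14320 0.049, AT2G39460 0.049, AT3G55280 0.0050, AT2G43460 0.066, AT2G25210 0.25, AT3G02190 0.14, AT4G31985 0.12, AT3G53870 0.041, AT5G35530 0.064, AT1G34030 0.0020, AT3G61110 0.060 and AT4G33865 0.28. With quantile normalization they were AT3G05590 -0.00057, AT1G52300 -0.026, AT2G37270 -0.024, AT5G16130 -0.0066 and AT4G00100 -0.033. AT3G10090 was at -0.021 by edgeR and by DESeq2. Leaving out 1 library, values ran from -0.092 to 0.024 in AT1G61580, -0.069 to 0.0066 in AT1G14320, -0.0050 to 0.047 in AT1G52300, -0.28 to 0.10 in AT2G25210, -0.23 to 0.0068 in AT3G02190, -0.095 to 0.068 in AT3G09200, -0.075 to 0.017 in AT5G35530, -0.0020 to 0.022 in AT2G37270, -0.051 to 0.13 in AT4G00100, -0.41 to 0.50 in AT3G10090 and -0.029 to 0.014 in AT4G33865. Counting all listed paralogs, the share of AT3G09200 in P0 fell by 0.969 percentage points in place of a rise of 0.21, that of AT3G18740 in L30 fell by 12.1, and that of AT1G77940 rose by 2.73.

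Same-numbered libraries did not deviate together (correlation of -0.01), which does not settle whether they were grown or prepared together. With the replicate block 32 genes were called, 29 lower; 1 call was lost (AT3G25520) and 1 gained (AT2G43460).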
